A study of Mus musculus with 6 samples.

Results

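Membrane fusion genes of the synaptic vesicle and their relatives were compared between hippocampal tissue and RNA bound to tagged ribosomes of Cx3cr1-expressing cells. Membership was set by gene symbol and gene type, and the group was chosen with earlier results of these data known. It took protein-coding rows of the deposited table from several families. These were the synaptotagmins (Syt), synapsins (Syn), SNAP-25-like proteins (Snap), syntaxins (Stx), syntaxin binding proteins (Stxbp) and vesicle-associated membrane proteins (Vamp). Complexins (Cplx), the vesicle glycoproteins Sv2 and the Munc13 priming factors (Unc13) were also taken. This gave 60 genes of the 15388 in the table. The symbol pattern for SNAP-25-like genes also took in Snap91, which encodes the clathrin adaptor AP180 and not a SNARE protein. All 60 genes passed the filter on low reads, 59 of them in both fractions and Syt15 through the Positive fraction alone.

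The mice carried Cx3cr1-cre/ERT2 and NuTRAP and were induced with tamoxifen at about 3 months of age. Cre was driven by the Cx3cr1 promoter, which in brain is active in microglia and other macrophages, and recombination placed a GFP tag on the ribosomes of those cells. Cleared hippocampal homogenate from each of 3 animals, numbered 201, 207 and 208, was kept in part as Input, and the ribosomes captured from the remainder by anti-GFP on beads gave the Positive fraction, so that both fractions shared genotype, treatment and tissue. There were 3 Input and 3 Positive libraries, with 14879734 to 17757918 reads each. Whether both mates of a read pair were counted is not given in the sources used here, so the number of sequenced fragments may be lower than these reads. Values are scaled reads, that is, estimated reads per gene divided by a size factor for each library, and a gene was called higher or lower when the adjusted p of the edgeR quasi-likelihood test over all genes was under 0.05.

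Vesicle fusion rests on SNARE proteins. A Vamp on the vesicle pairs with a syntaxin and a SNAP-25-like protein on the target membrane, and the zippering of their helices brings the membranes together. Munc18 proteins hold and template the syntaxin, Munc13 proteins open it and prime the vesicle, complexins clamp and support the assembled complex, and synaptotagmins act as calcium sensors. Synapsins tether vesicles in the reserve pool and Sv2 proteins are vesicle glycoproteins. Several of these families hold both paralogs typical of neurons and paralogs with other roles. The latter work in granule release of blood, immune and epithelial cells or in traffic between endosomes, Golgi and endoplasmic reticulum.

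Promoter sequence is shown for 4 genes that the values below turn on, each called in its family: Vamp8, Snap23 and Syn1 were higher in the Positive fraction and Stx3 was lower. The sequences are from RefSeq on GRCm38.p6, the assembly of the mm10 build, read 5′ to 3′ on the strand of the gene from 250 bases before the RefSeq start and stopped where the gene span of the deposited table begins. Capitals mark matches, on either strand, to 5 motifs: GAGGAAGT (an ETS site of the PU.1 type), TTCAGCACC (the left part of a REST site), TGACGTCA (a cyclic AMP response element), CCGCCC (a GC box) and TATAAA (a core promoter element). The Vamp8 stretch lies at chr6:72390704-72390917 on the minus strand, the Snap23 stretch at chr2:120567421-120567670 on the plus strand, the Syn1 stretch at chrX:20921005-20921168 on the minus strand and the Stx3 stretch at chr19:11819404-11819653 on the minus strand.
Vamp8: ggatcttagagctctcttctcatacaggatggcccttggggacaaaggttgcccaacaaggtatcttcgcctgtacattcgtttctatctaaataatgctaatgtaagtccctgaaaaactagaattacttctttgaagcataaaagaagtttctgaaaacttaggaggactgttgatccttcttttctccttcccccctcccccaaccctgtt
Snap23: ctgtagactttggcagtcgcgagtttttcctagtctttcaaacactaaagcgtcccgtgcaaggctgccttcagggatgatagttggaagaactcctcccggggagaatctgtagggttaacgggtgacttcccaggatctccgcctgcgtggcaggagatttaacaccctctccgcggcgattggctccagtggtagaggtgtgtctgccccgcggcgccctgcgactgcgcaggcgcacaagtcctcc
Syn1: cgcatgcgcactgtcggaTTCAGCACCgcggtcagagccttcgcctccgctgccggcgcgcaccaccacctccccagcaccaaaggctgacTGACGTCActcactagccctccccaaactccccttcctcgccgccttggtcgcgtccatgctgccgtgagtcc
Stx3: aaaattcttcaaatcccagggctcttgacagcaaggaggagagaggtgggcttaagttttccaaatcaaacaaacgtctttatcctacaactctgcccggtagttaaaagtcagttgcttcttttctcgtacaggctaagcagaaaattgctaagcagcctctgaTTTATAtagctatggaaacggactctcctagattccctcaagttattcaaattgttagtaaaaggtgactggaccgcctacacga
The Vamp8 and Snap23 windows held none of the 5 motifs. Syn1 held TTCAGCACC 232 bases and TGACGTCA 159 bases before its start, and Stx3 held the reverse complement of TATAAA 85 bases before its start.

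Of the 60 genes, 47 had a promoter entry under their symbol, with 60 windows of 250 bases in all. They were set against 32851 windows of all genes in the same reference. Those came from 27025 genes and were not limited to genes measured here, so the comparison set is unlike the group. GC boxes were found in 37 of the 60 windows (61.7%), which belonged to 34 genes, and in 32.7% of all windows. TATAAA was in 4 member windows (6.67%) against 12.4% of all windows. TTCAGCACC was in 1 member window, that of Syn1, and in 0.301% of all windows, and TGACGTCA was in 2, those of Stxbp3 and Syn1, against 1.55%. GAGGAAGT was in 0 member windows against 2.44% of all windows, which says only that these letters were not in the windows searched. The matches are a description of sequence and were not tested against the expression values.

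Of the 60 genes, 11 were higher in the Positive fraction, 12 were lower and 37 were not called. The called share was 38.3%, beside 46.0% of the 15343 genes tested (24.0% higher and 22.0% lower). The median log2 fold change, Positive over Input, was 0.02 for the 60 genes and -0.01 for all genes tested. Under scaling by total counts the median over all genes moved to -0.09 and the 60 genes were split into 10 higher and 16 lower, beside 47.7% of all genes called. Among called genes of the whole table, 52.2% were higher under the scaling used and 41.6% under total counts. Libraries of the fractions did not overlap for 28 of the 60 genes, beside 56.4% of all genes. The 23 called genes moved in the same direction in all 3 animals. In 22 of them, all but Stxbp6, the lowest library of the higher fraction lay above the highest of the other. The calls came from these same libraries, so both counts are a description and no further support. A fold above 2 was reached by 5 of the 60 genes, beside 12.8% of all genes: Unc13d, Syt15 and Vamp8 upwards, and Stx3 and Unc13c downwards. Syt15 passed the filter on low reads through the Positive fraction alone, so its place among the higher genes is a description only.

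**Figure D1:**
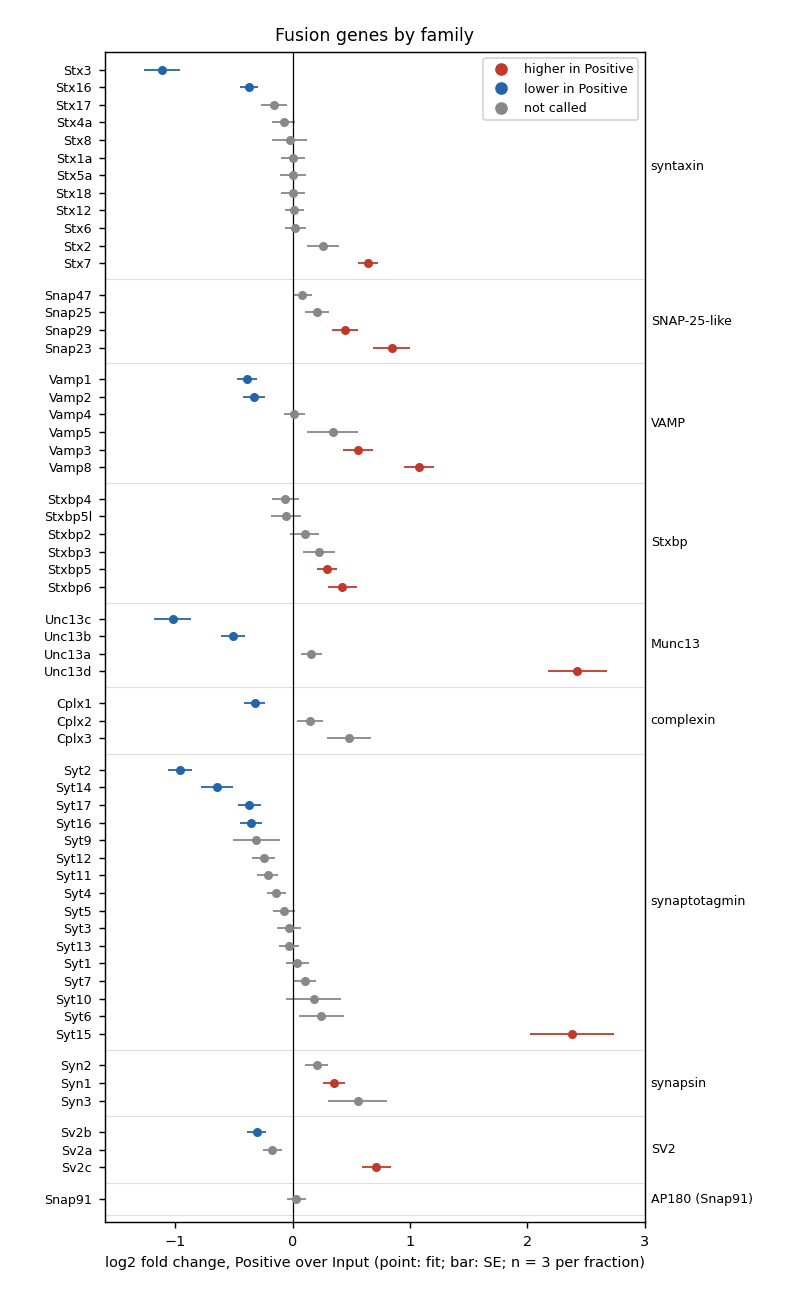
Log2 fold change, Positive over Input, of 58 of the 60 fusion genes in their families (points, fitted value; bars, SE; 3 libraries per fraction; red higher, blue lower, grey not called). Unc13d (2.43) and Syt15 (2.38) lie far to the right, Stx3 (-1.11), Unc13c (-1.02) and Syt2 (-0.96) to the left, and every family but the synapsins, the syntaxin binding proteins, the complexins, the SNAP-25-like genes and Snap91 holds called genes on both sides.

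The Positive fraction was labelled for Cx3cr1-expressing cells, and 10 of 10 microglial markers were higher in it, with a median log2 fold change of 4.63 and a summed level of 4784 to 5133 scaled reads in Input and 94250 to 138854 in Positive. All 5 border macrophage markers (median 4.15) and all 6 endothelial markers (median 1.97) were also higher. All 8 oligodendrocyte markers (median -2.13) and all 4 oligodendrocyte precursor markers (median -1.53) were lower, 3 of 8 astrocyte markers were lower and 1 higher (median -0.33), and 0 of 5 mural markers were called. The 10 neuronal markers split into 4 higher and 2 lower, with a median of 0.15. Their summed level was 136846 to 152906 in Input and 131938 to 149241 in Positive. Within that sum, Snhg11 fell from a mean of 29661 in Input to 12890 in Positive, and Camk2a rose from 48286 to 59585. No marker on these lists was at 0 in any library. The part of neuronal RNA in the Positive values given below was not tested. Both fractions of an animal came from the same homogenate, so these values compare the RNA recovered in each fraction and not numbers of cells.

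The neuronal release genes (19 genes: the SNARE proteins, priming factors, sensors and vesicle proteins of the nerve terminal) were spread around Input level. Syn1 and Sv2c were higher, 7 were lower (Unc13c, Syt2, Unc13b, Vamp1, Vamp2, Cplx1 and Sv2b) and 10 were not called, with a median log2 fold change of -0.16. Regulated secretion genes (10 measured of 12 listed, with paralogs known from granule release in immune and other cells) held 4 higher genes, Unc13d, Vamp8, Snap23 and Vamp3, and 1 lower, Stx3, with a median of 0.24. The other listed genes, Stx11 and Vamp7, had no row under these symbols in the deposited table. Of the 12 genes of endosome, Golgi and endoplasmic reticulum traffic, 2 were higher (Stx7 and Snap29), 1 was lower (Stx16) and the median was 0.02. The 19 genes in none of these lists held 3 higher and 3 lower, with a median of -0.03. The called share was 47.4% for neuronal release, 50.0% for regulated secretion, 25.0% for endosome, Golgi and reticulum traffic and 31.6% for the unlisted genes, beside 46.0% of all genes, so that the first 2 lists lay near the share of all genes.

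Among the SNAP-25-like genes, Snap23 and Snap29 rose, while Snap25 and Snap47 were not called. Snap25, the SNARE protein of the presynaptic membrane, held 32179, 28024 and 29297 scaled reads in Input of animals 201, 207 and 208, and 32700, 32144 and 38567 in Positive. The fractions overlapped, and the log2 fold change was 0.21 ± 0.10 (SE, n = 3 per fraction; 95% interval -0.02 to 0.43; adjusted p = 0.116). Snap23, its broadly expressed relative at the plasma membrane of secretory cells (gene span chr2:120567671-120601255, mm10), held 225, 227 and 287 in Input and 463, 510 and 353 in Positive. All 3 Positive libraries lay above Input, and animal 208 showed the smallest difference, with a log2 ratio of 0.30 beside 1.04 and 1.16. The fitted change of Snap23 was 0.84 ± 0.15 (adjusted p = 0.000708). Snap29, which serves fusion of autophagosomes and endosomes, held 347 to 400 in Input and 463 to 535 in Positive, a change of 0.45 ± 0.11 (adjusted p = 0.00546). Per kilobase of exons, Snap25 made up 68.1% ± 1.7 (SD, n = 3) of the family in Input and 69.2% ± 1.1 in Positive (exact permutation test, two-sided, p = 0.4), and Snap23 0.894% ± 0.14 and 1.43% ± 0.37 (p = 0.2).

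The vesicle SNARE genes split by paralog. Vamp2, the main synaptic vesicle SNARE, held 18605, 17153 and 17233 scaled reads in Input and 12720, 13736 and 15753 in Positive. Every Positive library was below every Input library, with the smallest gap in animal 208, and the log2 fold change was -0.33 ± 0.10 (SE, n = 3 per fraction; adjusted p = 0.0145). The call was lost when Input of animal 201 (adjusted p = 0.0683) or Positive of the same animal (0.0617) was dropped. Vamp1, its relative at fast-firing synapses, held 2222, 2266 and 2192 in Input and 1635, 1554 and 1906 in Positive. The fall of Vamp1 was of like size, at -0.39 ± 0.09 (adjusted p = 0.0026).

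Vamp8, the vesicle SNARE of late endosomes and of many secretory granules (chr6:72385223-72390703, mm10, promoter shown above), held 286, 294 and 338 in Input and 662, 722 and 548 in Positive. It was the only Vamp with a fold above 2, at a log2 fold change of 1.08 ± 0.12 (adjusted p = 1.6e-05). Vamp3, found on recycling endosomes, held 556, 476 and 502 in Input and 721, 910 and 627 in Positive, a change of 0.56 ± 0.13 (adjusted p = 0.0036). On the same strand the span of Vamp3 overlaps that of Camta1, which had a mean of 6500 scaled reads, so reads of these genes may not be fully separated. Vamp4 of the trans-Golgi network was at 0.02 ± 0.09 and Vamp5 at 0.34 ± 0.22, neither called. As shares of the family per kilobase, Vamp2 stood at 84.9% ± 0.67 (SD, n = 3) in Input and 78.4% ± 2.4 in Positive, Vamp8 at 2.43% ± 0.28 and 5.98% ± 1.1 and Vamp3 at 3.24% ± 0.14 and 5.58% ± 1.2 (exact permutation test, two-sided, p = 0.1 for each, the smallest this design allows).

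Of the 13 syntaxins, Stx7 rose, Stx3 and Stx16 fell and 10 were not called. Stx1a, a syntaxin of the presynaptic membrane, lay near Input level. It held 2185, 1893 and 1917 scaled reads in Input and 1960, 1740 and 2311 in Positive, with a log2 fold change of 0.00 ± 0.10 (SE; 95% interval -0.22 to 0.23; adjusted p = 0.983). Animals 201 and 207 were below their Input, while animal 208 was above it.

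Stx3, a syntaxin of apical membranes, granule release and ribbon synapses, fell most (chr19:11775118-11819403, mm10, promoter shown above). It held 518, 551 and 522 scaled reads in Input and 272, 285 and 179 in Positive, a log2 fold change of -1.11 ± 0.15 (adjusted p = 7.89e-05). The Positive library of animal 208 was the lowest. Stx7, a late endosomal syntaxin, held 1751, 1591 and 1698 in Input and 2601, 2881 and 2373 in Positive, at 0.64 ± 0.09 (adjusted p = 6.21e-05). Its share of the syntaxin family per kilobase was 6.74% ± 0.39 (SD, n = 3) in Input and 10.9% ± 1.5 in Positive (exact permutation test, two-sided, p = 0.1). Stx16 of the trans-Golgi network fell, from a mean of 1811 ± 37.9 (SD, n = 3) to 1400 ± 106, at -0.37 ± 0.08 (adjusted p = 0.00217).

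The plasma membrane syntaxins of other secretory cells were not called. Stx4a held 1046, 1018 and 1044 scaled reads in Input and 1079, 1042 and 824 in Positive, at -0.08 ± 0.10 (adjusted p = 0.564). Stx2 held 391, 358 and 469 in Input and 524, 528 and 401 in Positive, at 0.26 ± 0.14 (adjusted p = 0.144). In both genes animal 208 went below its Input and animals 201 and 207 above theirs, and without the Positive library of animal 208 Stx2 was called higher, at 0.38 (adjusted p = 0.0216). The other endosomal, Golgi and reticulum syntaxins (Stx5a, Stx6, Stx8, Stx12, Stx17 and Stx18) lay between -0.16 and 0.02.

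Among the syntaxin binding proteins, Stxbp5 and Stxbp6 rose and the other genes were not called. Stxbp2, the Munc18 of cytotoxic and mast cell granules, held 989, 818 and 810 in Input and 1047, 1006 and 757 in Positive, at 0.10 ± 0.12 (95% interval -0.16 to 0.37; adjusted p = 0.522). Stxbp3, the more broadly expressed form, held 294, 309 and 315 in Input and 332, 423 and 317 in Positive, at 0.23 ± 0.13 (adjusted p = 0.184). Stxbp3 fractions did not overlap although the gene was not called, with Input and Positive of animal 208 nearly equal.

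Both called genes of this family encode proteins that compete with Vamp for the target SNAREs. Stxbp6 (amisyn) held 1156, 1152 and 1397 in Input and 1396, 1568 and 1997 in Positive, at 0.42 ± 0.12 (adjusted p = 0.0143). The lowest Positive library lay just under the highest Input library, though each animal was higher than its own Input. Stxbp5 (tomosyn) rose from a mean of 1799 ± 166 (SD, n = 3) to 2205 ± 121, at 0.29 ± 0.09 (adjusted p = 0.0142). Both calls were lost in some settings: Stxbp5 had an adjusted p of 0.051 under total counts and 0.0633 when Input of animal 201 was dropped, and Stxbp6 had 0.0652 and 0.0667 when Input of animal 201 or 207 was dropped. Stxbp4 (-0.06) and Stxbp5l (-0.06) were not called. On the same strand the span of Stxbp4 overlaps that of the processed pseudogene Gm11512, which had a mean of 203 scaled reads. Reads of Stxbp4 and Gm11512 may therefore not be fully separated.

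The 4 Munc13 priming factors held a wide spread, 3.45 on the log2 scale between Unc13d and Unc13c. The synaptotagmins were spread almost as far, from -0.96 (Syt2) to 2.38 (Syt15). Unc13d, the priming factor of granules and lysosome-related organelles in blood cells (chr11:116062095-116077961, mm10), held 21.4, 25.4 and 27.3 scaled reads in Input and 117, 171 and 110 in Positive. All Positive libraries were over 4 times the highest Input library, and the log2 fold change was 2.43 ± 0.25 (adjusted p = 5.5e-06). Unc13a, the main priming factor at excitatory synapses, held 6477, 5490 and 5810 in Input and 6964, 6057 and 6815 in Positive, at 0.16 ± 0.09 (adjusted p = 0.167).

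Unc13b and Unc13c, the other neuronal forms, both fell. Unc13b held 1103, 959 and 1100 scaled reads in Input and 849, 709 and 665 in Positive, at -0.51 ± 0.10 (adjusted p = 0.00162). Unc13c, best known from the cerebellum, held 362, 400 and 459 in Input and 233, 213 and 155 in Positive, at -1.02 ± 0.16 (adjusted p = 0.000194). In both genes animal 208 had the lowest Positive library. Per kilobase, Unc13d was 0.936% ± 0.16 (SD, n = 3) of the family in Input and 4.72% ± 1.4 in Positive, Unc13c 8.2% ± 1.3 and 3.75% ± 0.75 and Unc13a 82.7% ± 1.7 and 86.2% ± 2.3 (exact permutation test, two-sided, p = 0.1, 0.1 and 0.2).

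**Figure D2:**
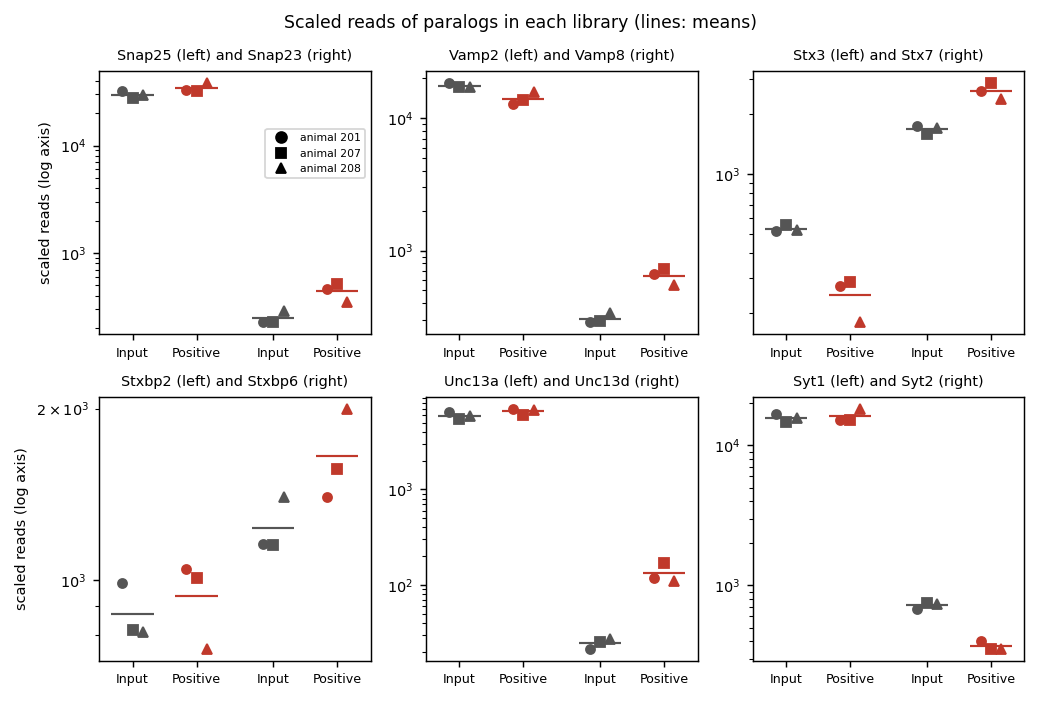
Scaled reads (log axis) in each of the 6 libraries for 6 paralog pairs, with a symbol for each animal and a line at the mean of each fraction (grey Input, red Positive, n = 3). Snap23, Vamp8, Stx7 and Unc13d sit higher in all 3 Positive libraries and Vamp2, Stx3 and Syt2 lower, while Snap25, Stxbp2, Stxbp6, Unc13a and Syt1 overlap between fractions. Counts are not divided by length, so levels are to be read across fractions of a gene and not between genes.

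Among the complexins, Cplx1 fell and Cplx2 and Cplx3 were not called. Cplx1 held 9166, 8585 and 7917 scaled reads in Input and 6390, 6881 and 7227 in Positive, at -0.32 ± 0.09 (adjusted p = 0.00833). Cplx2, the form most abundant in forebrain principal cells, held 31255, 32110 and 32165 in Input and 30866, 34075 and 41184 in Positive, at 0.15 ± 0.11 (adjusted p = 0.281). Every Positive library of Cplx1 was below Input, whereas those of Cplx2 lay on both sides and animal 208 stood highest. Per kilobase, Cplx1 took 37.5% ± 2.0 (SD, n = 3) of the family in Input and 30.2% ± 1.8 in Positive, and Cplx2 62.0% ± 2.1 and 69.1% ± 1.9 (exact permutation test, two-sided, p = 0.1 for each). Cplx3, a complexin of retina and a few cortical neurons, averaged 148 ± 32.5 in Input and 206 ± 36.1 in Positive, at 0.48 ± 0.19 (adjusted p = 0.0542). With the animal as a block, Cplx3 was called higher (0.48, adjusted p = 0.0135), the only call among the 60 genes that the pairing of libraries changed. It was also called higher without Input of animal 201 (0.67, adjusted p = 0.021) or Positive of animal 207 (0.61, adjusted p = 0.0283).

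Of the 16 synaptotagmins, Syt15 rose, Syt2, Syt14, Syt16 and Syt17 fell and 11 were not called. Syt1, the fast calcium sensor of most forebrain synapses, held 16714, 14786 and 15806 scaled reads in Input and 15285, 15122 and 18230 in Positive, at 0.04 ± 0.10 (95% interval -0.17 to 0.25; adjusted p = 0.766). Syt2, the fast sensor of hindbrain synapses and of some inhibitory neurons (chr1:134646677-134762593, mm10), held 674, 744 and 739 in Input and 403, 353 and 353 in Positive. Its libraries were tight in each fraction, and the log2 fold change was -0.96 ± 0.10 (adjusted p = 6.55e-06). Syt9, the least abundant of the fast sensors per kilobase, held 106, 109 and 104 in Input and 97.8, 93 and 66.5 in Positive, at -0.31 ± 0.20 (adjusted p = 0.219). Syt7, the slow, high-affinity sensor that also serves lysosome exocytosis, held 7073, 6358 and 6677 in Input and 6375, 7317 and 7932 in Positive, at 0.10 ± 0.09 (adjusted p = 0.379).

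Syt15, a synaptotagmin that does not bind calcium, was close to the detection limit in Input, with 15.3, 7.52 and 8.39 scaled reads, and held 73.1, 50.2 and 40.5 in Positive. Its log2 fold change was 2.38 ± 0.36 (adjusted p = 0.000149). Since it entered the test only through the fraction in which it was higher, its call is to be read as a description. Syt14 and Syt16, which also lack calcium binding, went the other way, from 374 ± 11.2 (SD, n = 3) to 239 ± 39.1 for Syt14 (-0.65 ± 0.14, adjusted p = 0.00204) and from 1084 ± 48.4 to 849 ± 96.2 for Syt16 (-0.35 ± 0.09, adjusted p = 0.0085). Syt17 fell from 1300 ± 38.2 to 1007 ± 149 (-0.37 ± 0.10, adjusted p = 0.00958). Syt11, the most abundant synaptotagmin per kilobase, averaged 15144 ± 618 in Input and 13064 ± 1149 in Positive (-0.21 ± 0.09, adjusted p = 0.0699). Without the Positive library of animal 208, Syt4, Syt11 and Syt12 were also called lower (adjusted p = 0.0301, 0.00409 and 0.0452). The same 3 genes were called lower under total counts (0.0362, 0.018 and 0.0152), Syt11 also in DESeq2 (0.0338) and Syt12 with a limit of 100 scaled reads (0.0479). Syt3, Syt5, Syt6, Syt10 and Syt13 lay between -0.07 and 0.25, and none was called.

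Among the vesicle proteins, Syn1 and Sv2c rose and Sv2b fell. Syn1 (chrX:20860511-20921004, mm10, promoter shown above) held 7912, 6667 and 6951 scaled reads in Input and 9017, 8339 and 10144 in Positive, at 0.35 ± 0.10 (adjusted p = 0.00994). Syn2 held 10380, 10316 and 10962 in Input and 11162, 11195 and 14114 in Positive, at 0.20 ± 0.10 (adjusted p = 0.115). Neither overlapped between fractions, and the highest library of both was Positive of animal 208. The Syn1 call was lost without the Input library of animal 207 (0.30, adjusted p = 0.0632) or 208 (0.33, adjusted p = 0.0552). Syn3, the least abundant synapsin per kilobase, averaged 64.0 ± 7.47 (SD, n = 3) in Input and 94.1 ± 31.9 in Positive and was not called (0.55 ± 0.25, adjusted p = 0.0919). Without the Positive library of animal 207, Syn3 was called higher (0.76, adjusted p = 0.0284).

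Sv2a, the form found at nearly all synapses, held 8136, 8196 and 8059 scaled reads in Input and 7038, 6726 and 7888 in Positive, at -0.17 ± 0.08 (adjusted p = 0.109). The Sv2a fractions did not overlap, and without the Positive library of animal 208 the gene was called lower (-0.24, adjusted p = 0.00928), as it was under total counts (-0.25, adjusted p = 0.0251). Sv2b held 5691, 6080 and 5912 in Input and 4541, 4619 and 5157 in Positive, at -0.30 ± 0.08 (adjusted p = 0.00767). Sv2c, known from basal ganglia, moved against its paralogs, with 374, 324 and 371 in Input and 517, 551 and 688 in Positive, at 0.71 ± 0.13 (adjusted p = 0.000517). Its share of the family per kilobase was 1.48% ± 0.13 (SD, n = 3) in Input and 2.75% ± 0.22 in Positive (exact permutation test, two-sided, p = 0.1). Snap91, the clathrin adaptor, was at 0.03 ± 0.08 and was not called.

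Per kilobase of exons, the genes of high Input level included Cplx2 (6462 scaled reads per kilobase), Vamp2 (4637), Snap25 (4393), Cplx1 (3909), Syt11 (2910), Syn1 (2175), Snap47 (1893) and Syt1 (1891). Of these, Vamp2 and Cplx1 were lower and Syn1 was higher, at log2 fold changes of -0.33, -0.32 and 0.35. The 3 genes with a rise of more than 1 were found at lower Input levels per kilobase, with Vamp8 at 132, Unc13d at 5.28 and Syt15 at 2.02. Summed over all 60 genes, the share of all reads in the library was 1.544%, 1.497% and 1.509% in Input and 1.396%, 1.379% and 1.61% in Positive. The means were 1.52% ± 0.0244 (SD, n = 3) and 1.46% ± 0.129, and the fractions overlapped (exact permutation test, two-sided, p = 0.5).

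**Figure D3:**
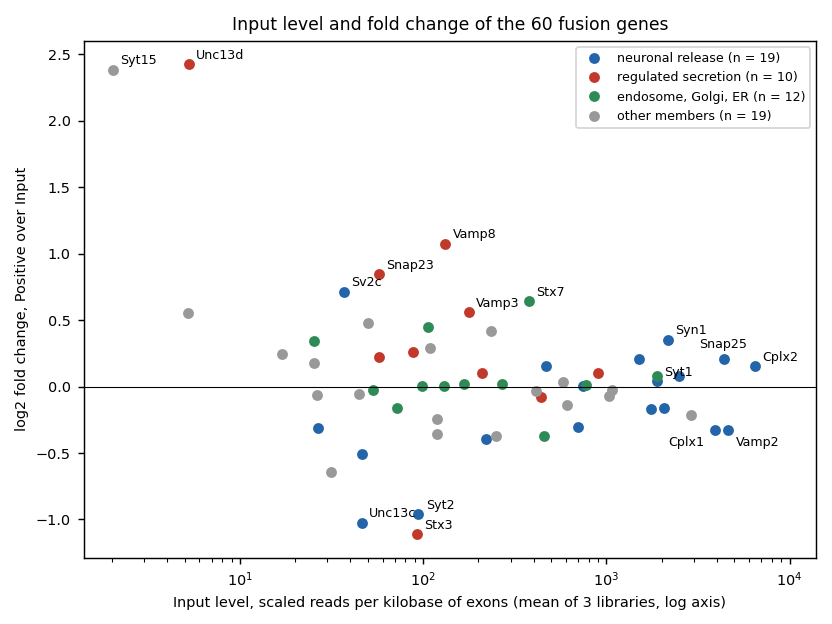
Input level in scaled reads per kilobase of exons (mean of 3 libraries, log axis) against log2 fold change, Positive over Input, for the 60 genes, coloured by list. Neuronal release genes such as Cplx2 (0.15), Snap25 (0.21) and Vamp2 (-0.33) lie at the right, and the genes furthest from 0, Unc13d (2.43), Syt15 (2.38), Vamp8 (1.08), Stx3 (-1.11) and Unc13c (-1.02), lie at Input levels from 2.02 to 132 per kilobase.

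The animals did not show the lists to the same extent. The median log2 ratio of Positive over Input within an animal was -0.16, -0.23 and 0.01 for the neuronal release genes in animals 201, 207 and 208, and 0.27, 0.51 and 0.13 for the regulated secretion genes. Animal 208 thus lay highest for the first list and lowest for the second. Its Positive library was the highest of the 3 for 14 of 19 neuronal release genes and the lowest for 9 of 10 regulated secretion genes, beside 32.3% and 44.2% of all genes. Among the Positive libraries it held the highest sum of neuronal markers (149241) and the lowest sum for the other 7 marker lists: microglia (94250), border macrophages (2273), endothelium (3413), astrocytes (52132), oligodendrocytes (12163), their precursors (507) and mural cells (1677). The part of these differences in the values of the fusion genes was not tested. Without this library, 12 of the 60 genes were higher and 17 lower, beside 47.3% of all genes called.

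**Figure D4:**
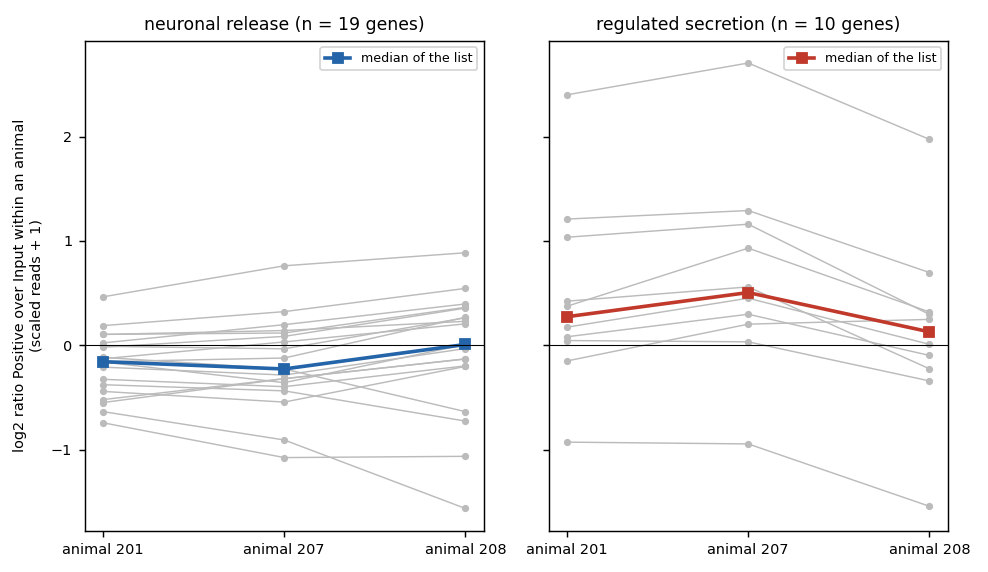
Log2 ratio of Positive over Input within each animal (scaled reads plus 1) for the 19 neuronal release genes (left) and the 10 regulated secretion genes (right), with grey lines for genes and squares for the list median. The medians are -0.16, -0.23 and 0.01 on the left and 0.27, 0.51 and 0.13 on the right for animals 201, 207 and 208. The animals have no order and lines only join the values of a gene.

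Other genes of the release pathway were taken from a list of 40 active zone, docking and vesicle genes, of which 37 were measured. In this list 7 genes were higher and 7 lower (37.8% called, beside 46.0% of all genes), with a median log2 fold change of 0.03. Rab27a, a GTPase that docks secretory granules in immune cells, held 144, 172 and 197 scaled reads in Input and 414, 430 and 411 in Positive, at 1.29 ± 0.14 (adjusted p = 6.8e-06), while its brain paralog Rab27b fell (-0.49 ± 0.12, adjusted p = 0.00603). Rph3a, an effector of Rab3 and Rab27 on vesicles, rose from 5337 ± 685 (SD, n = 3) to 8890 ± 728 (0.74 ± 0.10, adjusted p = 7.46e-05). Synpr, a synaptic vesicle membrane protein (0.45), and Nsf, the ATPase that takes SNARE complexes apart (0.33), were also higher, though Nsf was not called without Input of animal 207 (adjusted p = 0.0553), when the list held 3 higher and 5 lower genes. The active zone scaffolds Pclo (-0.70 ± 0.08, adjusted p = 8.81e-06) and Rims1 (-0.38 ± 0.08, adjusted p = 0.00122) and the Rab27 effector Sytl2 (-0.45 ± 0.09, adjusted p = 0.00178) were lower.

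Genes of vesicle traffic outside the synapse, 19 in all, were split into 9 higher and 2 lower, with a median of 0.18. The called share was 57.9%, beside 46.0% of all genes (24.0% higher and 22.0% lower). Of the 6 listed subunits of the complex that tethers late endosomes and lysosomes before fusion, Vps18 (0.56), Vps39 (0.50), Vps33a (0.45) and Vps11 (0.33) were higher. Vps41 (0.16, adjusted p = 0.0876) and Vps16 (0.07, adjusted p = 0.473) were not called. The SNARE gene Vti1a of the trans-Golgi network rose, from 927 ± 26.9 (SD, n = 3) to 1273 ± 49.2 (0.46 ± 0.08, adjusted p = 0.0004). Its late endosomal paralog Vti1b fell, from 2138 ± 128 to 1293 ± 29.2 (-0.73 ± 0.08, adjusted p = 6.97e-06). Use1, a SNARE of the endoplasmic reticulum, also fell (-0.39 ± 0.09, adjusted p = 0.0039).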

How the data were processed

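RNA was measured in 6 libraries from hippocampus of 3 mice, with an Input and a Positive library from each. Libraries were directional and poly(A)-selected. The authors aligned reads to mm10 in Strand NGS, counted them per gene using strand, and deposited a table restricted to genes reaching 20 raw reads throughout Input or throughout Positive (15388 rows). The deposited raw values are expected counts, with fractions of reads (18.5% to 25.0% of values per library were whole within 0.001). The deposited normalized columns, on a log2 scale, were not used. Groups came from the fraction labels.

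Counts were rounded and modelled with edgeR 4.0.16 under R 4.3.3 (quasi-likelihood F test), unpaired as in the study. Median-of-ratios scaling (RLE) was computed over all 15388 rows. The fit used genes above 20 scaled reads throughout Input or throughout Positive (15343 kept, 45 removed). The Benjamini-Hochberg adjustment ran over all genes kept, and an adjusted p under 0.05 was a call. Fractions with the same number came from the same animal, and their deviations from the group means correlated at 0.193, 0.058 and 0.12. Per-kilobase values used exon lengths of GENCODE M21, with 60 of 60 genes matched. Values within an animal used log2(scaled reads + 1). The procedure was tested on simulated data. With 3 libraries a fraction, an exact permutation test cannot go below p = 0.1. Alternatives were total count and TMM scaling, DESeq2 1.42.0, other filters, animal as a block and leaving out each library.

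The genes and lists were chosen with earlier results of these data known. The counts cover all 60 genes, and 2 of them are not reported here by name. Every other gene of the group could be named. Library values were given for the neuronal release and regulated secretion lists and for the largest rise and fall in each family. From each outside list up to 4 higher and 4 lower genes with at least 100 scaled reads were named by size of change. The remaining listed subunits of the tethering complex of late endosomes and lysosomes were named as well, whether called or not.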

Additional observations from a re-analysis of the deposited data

How the results depend on the processing

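Between 21 and 29 of the 60 genes were called when each library was left out in turn (9 to 13 higher, 11 to 17 lower), with the median log2 fold change between -0.02 and 0.04. The count of 29 came without Positive 208, when 47.3% of all genes were called. Under total counts the share of all genes was 47.7%. For the other alternative settings that share is not given here, so their counts describe the processing and are no result about these genes. Scaling by TMM called 11 higher and 12 lower, DESeq2 11 and 13, no filter 11 and 12, and a limit of 100 scaled reads 10 and 13. Total counts called 10 higher and 16 lower and moved the median to -0.0624 for the 60 genes, to -0.0624 for the endosome, Golgi and reticulum list and to 0.10 for the vesicle traffic genes. With animal as a block, which respects the pairing, 12 genes were higher and 12 lower, with a median of 0.01. Cplx3 was the added call, and no call was lost. Leaving out 1 library, higher neuronal release genes numbered 1 to 2 (1 without Input 207 or 208, when the Syn1 call was lost), the median of the endosome, Golgi and reticulum list ran from 0.0043 to 0.0688, and the release machinery outside the group held 8 to 16 calls with 3 to 8 higher (lowest without Input 207).

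Of the genes reported by name, fold changes changed sign only in some near 0 that were not called. Under total counts these were Snap91 (-0.0442), Vamp4 (-0.0622), Syt1 (-0.0373), Stx1a (-0.0739), Stx5a (-0.073), Stx18 (-0.0717), Stx12 (-0.0626) and Stx6 (-0.0575), and with the block Stx1a (-0.00319) and Stx5a (-0.000531). Leaving out each library gave ranges of -0.0298 to 0.0851 for Snap91, -0.14 to 0.0400 for Stxbp5l, -0.036 to 0.10 for Vamp4, -0.17 to 0.0169 for Syt5, -0.13 to 0.0459 for Syt3, -0.11 to 0.0258 for Syt13, -0.0512 to 0.088 for Syt1, -0.15 to 0.0355 for Stx4a, -0.19 to 0.14 for Stx8, -0.11 to 0.0958 for Stx1a, -0.0886 to 0.0992 for Stx5a, -0.0298 to 0.0445 for Stx18, -0.0379 to 0.0667 for Stx12 and -0.0637 to 0.0994 for Stx6. The call of Vamp2 was lost without Input 201 (adjusted p = 0.0683) or Positive 201 (0.0617). The cause was not tested. Low read counts in Input limit the precision of Unc13d and Syt15.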

Other observations

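A row that the selection by gene type left out, the processed pseudogene Vamp7-ps, held 72.4, 85.5 and 93.3 scaled reads in Input and 77.2, 115 and 102 in Positive, and was not called (log2 fold change 0.23 ± 0.21, SE, adjusted p = 0.391 in edgeR). Its reads cannot be fully told apart from those of its parent gene, Vamp7, which had no row under that symbol in the deposited table. Across the 60 genes, log2 fold change and exon length had a Spearman rho of -0.19, and across the 19 neuronal release genes -0.10. The genes share the same 6 libraries, and these values are a description only.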
